A study of Mus musculus with 4 samples.

Results

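A set of 10 genes that encode synaptic receptors, ion channels and cell surface adhesion proteins were followed in embryoid bodies (EBs) with and without LSD1. The set held Grin2b, Cdh9, Tafa4, Gpc5, Adgrb3, Kcnq3, Kcnj3, Il1rapl1, Kirrel3 and Dscaml1, which are 10 of the 25209 genes counted, and each was found by its symbol in all 4 libraries. They were selected on earlier results of the same libraries, so their levels in LSD1 KO and WT EBs are given as a description and carry no test. EBs are aggregates in which mouse embryonic stem cells (ESCs) form mixtures of early embryonic cell types. LSD1 KO EBs came from V6.5 ESCs in which CRISPR/Cas9 had removed the promoter and first exon of Lsd1 (gene symbol Kdm1a), and whether 1 or several clones were used is not given for these libraries. WT EBs came from V6.5 ESCs without that deletion. Both genotypes were cultured as hanging drops for 6 days in serum medium, and each genotype had 2 biological replicates with 1 droplet 3′ single-cell library each. Barcodes with at least 500 UMIs (unique molecular identifiers, counts of captured molecules) and at least 500 genes were kept as cells.

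As background, NMDA-type glutamate receptors open at excitatory synapses when glutamate is bound and the membrane is depolarised, and Grin2b encodes a subunit of them. KCNQ channels carry a slow potassium current that damps repetitive firing, and the inward rectifier made from Kcnj3 opens when G proteins are released by inhibitory receptors. Adhesion molecules of the cadherin and immunoglobulin families are known for steering which neurons come into contact. LSD1 is a histone demethylase that works with CoREST proteins in repressor complexes.

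The libraries held 72285943 to 75406512 UMIs each. Kept barcodes numbered 5693 and 3045 in the LSD1 KO libraries, against 4393 and 6828 in the WT libraries, with median depths of 11402 and 20304 UMIs in LSD1 KO, against 11698 and 9211 UMIs in WT. Kdm1a itself stood at 1.10 and 0.810 CPM (UMIs of a gene scaled to a common library total) in LSD1 KO, against 220.5 and 246.1 CPM in WT, as the labels state. Pairs of libraries shared 3 to 15 kept barcodes, at most 0.264% of the smaller library. Counts of the 2 libraries of each genotype lay further apart than sampling noise allows. Among barcodes with at least 2000 UMIs, gates of marker genes found cardiac and lateral mesoderm cells (0 and 0 barcodes in LSD1 KO, against 726 and 897 in WT) and epithelial endoderm cells (5 and 1 in LSD1 KO, against 345 and 569 in WT). A class positive for both pluripotency and neuron markers, called the double gate here, held 560 and 248 barcodes in LSD1 KO, against 0 and 11 in WT.

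Most of these genes are long. In the GENCODE M1 annotation of NCBIM37 (the mm9 build), Gpc5 spans 1432 kb on chromosome 14, Il1rapl1 spans 1375 kb on chromosome X and Adgrb3 (named Bai3 there) spans 762 kb on chromosome 1. Kirrel3 and Dscaml1 span 551 and 326 kb on chromosome 9, Grin2b spans 444 kb and Tafa4 (Fam19a4) spans 229 kb on chromosome 6, and Kcnq3 spans 291 kb on chromosome 15. Kcnj3, with 162 kb on chromosome 2, and Cdh9, with 78.7 kb on chromosome 15, are the shortest of the set. The median gene with an annotated span, available for 89.3% of the counted genes, covers 15.7 kb. Exons make up 0.157% of the Gpc5 span, 3.68% of the Cdh9 span and a share between these in the other members. All 10 are protein-coding, and Dscaml1 overlaps the annotated gene 4833428L15Rik, whose reads may not be separable from its own. The RefSeq start of Cdh9 lies upstream of the GENCODE start, so its span is understated here.

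Promoters in RefSeq (table build GRCm38.p6, from 250 bases before to 50 bases after the start) were available for 6 members, namely Adgrb3, Cdh9, Gpc5, Il1rapl1, Kcnj3 and Tafa4, and each matched NCBIM37 at exactly 1 place. Grin2b, Kcnq3, Kirrel3 and Dscaml1 are named only. Those of 4 genes are shown 5′ to 3′ on the strand of the gene, because Tafa4, Cdh9 and Adgrb3 had the widest distance between LSD1 KO and WT libraries upward and Il1rapl1 lay lower in LSD1 KO. They lie at chr6:97010356-97010655 (minus strand, Tafa4), chr15:16658420-16658719 (plus, Cdh9), chr1:25886503-25886802 (minus, Adgrb3) and chrX:85361238-85361537 (minus, Il1rapl1). Capitals mark every match, on either strand, to the CCAAT box (CCAAT), the GC box (GGGCGG), the TATA box (TATAAA) and the left arm (TTCAGCACC) and right arm of the RE1 element, the site of the neuronal gene repressor REST.
Tafa4: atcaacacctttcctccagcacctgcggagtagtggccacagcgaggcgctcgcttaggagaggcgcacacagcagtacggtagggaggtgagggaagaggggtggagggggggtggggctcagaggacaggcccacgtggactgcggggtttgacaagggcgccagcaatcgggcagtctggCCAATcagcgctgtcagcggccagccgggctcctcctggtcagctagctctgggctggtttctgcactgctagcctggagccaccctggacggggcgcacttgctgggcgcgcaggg
Cdh9: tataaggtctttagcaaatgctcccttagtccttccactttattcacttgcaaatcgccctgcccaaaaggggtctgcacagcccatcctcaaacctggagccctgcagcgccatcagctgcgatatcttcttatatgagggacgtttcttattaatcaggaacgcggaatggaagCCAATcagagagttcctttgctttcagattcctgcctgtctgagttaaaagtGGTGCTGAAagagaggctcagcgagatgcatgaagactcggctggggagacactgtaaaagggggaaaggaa
Adgrb3: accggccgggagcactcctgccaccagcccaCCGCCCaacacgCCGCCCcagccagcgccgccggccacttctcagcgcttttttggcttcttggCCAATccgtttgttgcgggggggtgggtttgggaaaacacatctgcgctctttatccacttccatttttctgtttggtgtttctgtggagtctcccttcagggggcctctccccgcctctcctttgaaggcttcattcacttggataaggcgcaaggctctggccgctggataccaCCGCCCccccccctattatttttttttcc
Il1rapl1: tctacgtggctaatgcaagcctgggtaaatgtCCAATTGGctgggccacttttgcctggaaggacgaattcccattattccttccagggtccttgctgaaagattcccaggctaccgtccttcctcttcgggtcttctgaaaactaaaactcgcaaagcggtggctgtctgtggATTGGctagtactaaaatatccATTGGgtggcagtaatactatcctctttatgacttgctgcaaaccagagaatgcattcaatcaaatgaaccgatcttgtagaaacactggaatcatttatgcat
Only the Cdh9 window of the 6 held a left RE1 arm, on the reverse strand (GGTGCTGAA as printed), which 0.371% of 32851 RefSeq promoters of this length hold. No window held a right arm, which 0.521% of promoters hold. CCAAT occurred in 5 of the 6 windows, all except Gpc5, against 37.4% of all promoters. Il1rapl1 carried 4 matches, of which 2 overlap in its first capital run. The GC box occurred in Adgrb3, Gpc5 and Kcnj3, against 35.7% of all promoters, and TATAAA in Gpc5, against 13.6%. The ratio of observed to expected CpG reached 0.6 in Adgrb3 and Gpc5, 2 of 6 windows, against 35.8% of all promoters. These matches describe letters and show no binding.

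Of the members, 7 were far more abundant in LSD1 KO EBs than in WT EBs, Dscaml1 was slightly more abundant, and Il1rapl1 and Kirrel3 were less abundant. Levels in this paragraph and the next are CPM of UMIs summed over the kept barcodes of a library, scaled by TMM (trimmed mean of M values). Because these are sums, fewer cells of a type and less RNA per cell cannot be told apart. Grin2b had 21.6 and 31.3 CPM in the LSD1 KO libraries, against 1.21 and 1.68 in the WT libraries, an 18.4-fold ratio of the means. Its lower LSD1 KO library was thus still well above both WT libraries. Adgrb3, a brain adhesion G protein-coupled receptor that binds C1q-like proteins at synapses, had 96.9 and 114.1 CPM in LSD1 KO, against 3.47 and 7.09 in WT, a log2 fold change of 4.32. The WT replicates of Adgrb3 lay further apart, in relative terms, than the LSD1 KO replicates. Kcnj3, which encodes the GIRK1 subunit, had 77.0 and 105.8 CPM in LSD1 KO, against 9.92 and 15.9 in WT, a log2 fold change of 2.82. Kcnq3, a subunit of the channel behind the M current, had 61.0 and 79.6 CPM in LSD1 KO, against 18.2 and 25.8 in WT, a log2 fold change of 1.68. Both channel genes thus had a clear level in WT as well.

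Tafa4, a secreted chemokine-like protein made by sensory neurons, had 31.1 and 32.6 CPM in LSD1 KO, against 0.546 and 0.675 in WT, a log2 fold change of 5.70 and a 52.2-fold ratio of the means. Its LSD1 KO replicates were nearly alike. Cdh9, a type II cadherin that joins particular synaptic partners, had 12.6 and 29.4 CPM in LSD1 KO, against 0.370 and 0.816 in WT, a log2 fold change of 5.14. Replicates of Cdh9 differed by more than 2 times within each genotype. Gpc5, a glypican that carries heparan sulfate at the cell surface, had 67.1 and 53.1 CPM in LSD1 KO, against 5.74 and 5.32 in WT, a log2 fold change of 3.44. Dscaml1, an immunoglobulin-family adhesion molecule of retinal neurons, had 7.89 and 7.32 CPM in LSD1 KO, against 4.58 and 5.60 in WT, a log2 fold change of 0.58. That difference was small beside the other 7. Il1rapl1, a synaptic receptor-like protein linked to X-linked intellectual disability in humans, had 3.96 and 7.14 CPM in LSD1 KO, against 17.0 and 29.4 in WT, a log2 fold change of −2.07. Kirrel3, an adhesion protein that sorts olfactory axons and acts at hippocampal synapses, had 5.84 and 4.13 CPM in LSD1 KO, against 38.1 and 45.7 in WT, a log2 fold change of −3.07. In none of the 10 did the genotypes overlap, with 8 above and 2 below WT. As background, 39.1% of the 16953 tested genes lay above both WT libraries in both LSD1 KO libraries and 38.4% lay below, and nothing is read from the members' count, since this contrast chose them. Restricting to barcodes with at least 2000 UMIs and 1000 genes left the log2 fold changes at 4.15 for Grin2b, 5.15 for Cdh9, 5.69 for Tafa4, −2.09 for Il1rapl1 and −3.08 for Kirrel3.

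**Figure D1:**
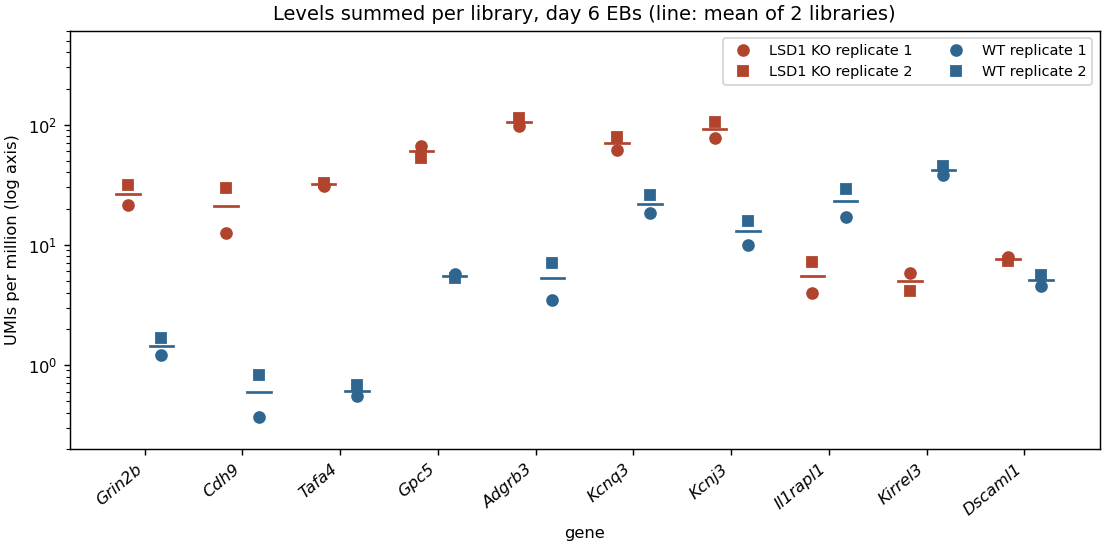
Level of each gene in each library, as TMM-scaled CPM on a log axis, with LSD1 KO (red) left of WT (blue), circles for replicate 1, squares for replicate 2 and a line at the mean of the 2 libraries. Grin2b, Cdh9, Tafa4, Gpc5, Adgrb3, Kcnq3, Kcnj3 and Dscaml1 lie higher in both LSD1 KO libraries, and Il1rapl1 and Kirrel3 lie lower in both.

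Related genes were read from 14 lists of receptors, channels, adhesion molecules and synaptic proteins, from which the members were left out. The lists were drawn up with earlier results of these libraries known, so their calls are not independent evidence of a direction. Of 152 such genes 140 could be tested, and edgeR's quasi-likelihood test with Benjamini-Hochberg adjustment over all genes called 55 higher and 34 lower in LSD1 KO, with 51 not called. Over all 16953 genes tested the test called 22.6% higher and 21.6% lower. The median log2 fold change of the lists was 0.32, against 0.00 for all genes. Without TMM scaling the calls were 59 higher and 30 lower, and over all genes the share of calls that were higher was 65.2% in place of 51.2%, with the median of all genes at 0.13.

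Relatives of the members did not move as 1 group. Among ionotropic glutamate receptor genes 7 of 17 rose and 3 fell. Gria4, an AMPA receptor subunit, averaged 142.1 ± 6.60 CPM in LSD1 KO and 24.6 ± 3.33 in WT (SD, n = 2 each), with adjusted p = 0.000416 from edgeR. Among type II cadherins 6 of 10 rose and 2 fell. Cdh12 rose by 3.59 on the log2 scale (edgeR adjusted p = 0.00144), and Cdh11, a cadherin of mesenchymal cells, fell by 2.65 (edgeR adjusted p = 0.00672). Of the other glypicans 0 of 5 rose and 4 fell. Gpc3, the glypican lost in an overgrowth syndrome, averaged 218.6 CPM in LSD1 KO and 1145 in WT, a log2 fold change of −2.39 (edgeR adjusted p = 0.000559). Of the adhesion G protein-coupled receptors and C1q-like ligands 5 of 8 rose and 0 fell, among them Adgrb2 (log2 fold change 2.08), Adgrl3 (2.19) and the ligand gene C1ql1 (1.95). Of the KCNQ genes, Kcnq5 fell by 1.43 (edgeR adjusted p = 0.00123).

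Other families showed the same mixture. Of the inward rectifiers 2 of 7 rose and 1 fell, and none of the 3 reached 2 CPM in any library. Kcnj5, whose product pairs with GIRK1 in heart, was the 1 that fell. Among the partners of Il1rapl1 and the LAR phosphatases 3 of 9 rose and 2 fell. Slitrk5 rose by 3.46, while Ptprd, a known presynaptic partner of Il1rapl1, fell by 0.89 (edgeR adjusted p = 0.00294). Kirrel fell by 0.99 and Nphs1 and Kirrel2 rose, so that all 3 tested relatives of Kirrel3 were called. Kirrel2 lay near the floor, at 0.184 and 0.367 CPM in LSD1 KO, against 0.0161 and 0.0628 in WT. Among Dscam, sidekick and contactin genes 2 of 8 rose and 3 fell. Cntn4 averaged 5.49 CPM in LSD1 KO and 37.2 in WT, a log2 fold change of −2.76 (edgeR adjusted p = 0.00201). Neurexins, neuroligins and partners held 6 rises and 5 falls among 20. Tenm1, a teneurin adhesion protein, rose by 3.38 (edgeR adjusted p = 0.000459), and Flrt3 fell by 2.62. Genes of synaptic vesicles and release held 6 rises and 4 falls among 15, with Syt1, the calcium sensor of release, up by 3.49 and Syn2 down by 2.23. Postsynaptic scaffold genes held 4 rises and 4 falls among 12. Voltage-gated sodium and calcium channel genes held 10 rises and 2 falls among 18, and Scn9a had 24.2 and 19.8 CPM in LSD1 KO, against 0.161 and 0.0471 in WT.

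Within LSD1 KO EBs the 7 strongly higher genes were present in all 12 sums of a marker class in a library. Class levels from here on are plain CPM without TMM over barcodes with at least 2000 UMIs. They are descriptions, since the members were chosen on these cells. Grin2b stood at 26.4 and 30.3 in the pluripotency gate, at 24.1 and 29.8 in the double gate and at 15.3 and 24.3 in the neuron gate of the LSD1 KO libraries. Grin2b was thus not highest in the neuron gate, but the LSD1 KO classes shared markers. Summed neuron markers stood at 1223 and 1037 in the neuron gate, against 531 and 512.5 in the pluripotency gate. Summed pluripotency markers stood at 513.6 and 514.6 in the neuron gate, against 1876 and 2029 in the pluripotency gate. The lowest well-counted class of Grin2b was the streak gate (primitive streak markers such as T and Mixl1), at 12.5 and 17.0. In replicate 1 the counting interval of the streak gate (10.3 to 15.0 at 95%, Poisson, counting error only) did not reach that of the pluripotency gate (23.7 to 29.4), while in replicate 2, with 67 streak barcodes, it reached 24.3 against 28.3. Cdh9 and Tafa4 were also lower in the streak gate than in the pluripotency gate, at 6.68 and 10.8 for Cdh9 and 17.8 and 23.8 for Tafa4 in the streak gate, against 13.97 and 29.0 for Cdh9 and 34.7 and 32.8 for Tafa4 in the pluripotency gate. Adgrb3 varied least, with a different order, at 110.8 and 125.2 in the streak gate, 88.7 and 101.6 in the pluripotency gate and 95.9 and 112.8 in the neuron gate. Across the 6 classes and 2 libraries its highest level was 1.81 times its lowest, against 5.50 times for Cdh9, with differences between libraries included. Within replicate 1 Adgrb3 ran from 80.6 to 112.9 and Cdh9 from 6.68 to 16.9. Within replicate 2 Adgrb3 ran from 101.6 to 146.0 and Cdh9 from 10.8 to 36.7. Kirrel3 was the member that was highest in the streak gate, at 17.9 and 9.63, against 2.63 and 2.54 in the pluripotency gate.

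Barcodes in no gate had the highest LSD1 KO levels of Grin2b (30.4 and 41.0), Kcnj3 (101.9 and 133.9), Adgrb3 (112.9 and 146.0) and Kcnq3 (74.5 and 93.9). These barcodes were also shallower, with median depths of 11040 and 19408 UMIs, against 13279 and 28400 UMIs in the pluripotency gate. The part of depth in these levels was not tested. RNA outside cells held these genes too, since barcodes with 10 to 100 UMIs had Adgrb3 at 98.8 and 89.5 CPM in LSD1 KO, against 0 (0 UMIs in 104909) and 4.46 in WT. Tafa4 in the same near-empty barcodes stood at 43.2 and 25.6 CPM in LSD1 KO, from 21 and 4 UMIs, against 0 UMIs in both WT libraries. Kcnq3 was lower there than in kept barcodes in LSD1 KO replicate 2, at 25.6 CPM (interval 6.97 to 65.5) against 82.7 CPM, and in WT replicate 2, at 12.6 against 23.9 CPM. It was alike in LSD1 KO replicate 1, at 63.8 against 64.4 CPM. In WT replicate 1 it stood at 38.1 CPM (4 UMIs, interval 10.4 to 97.6) against 17.9 CPM. The share of the class levels that free RNA supplied was not tested.

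In WT EBs Grin2b, Cdh9 and Tafa4 stood below 8 CPM in each class, and Kcnq3 and Kcnj3 were better represented. Adgrb3 had 0 UMIs in the visceral endoderm and endothelial gates of both WT libraries, where 3 UMIs would be 1.77 to 7.54 CPM. In the cardiac and lateral mesoderm gate it stood at 2.10 and 1.17. The neural progenitor gate of WT replicate 2 was the WT class that came near the LSD1 KO level (95% interval 71.5 to 136.2 CPM), from 40 UMIs in 39 barcodes, but 29 of these UMIs came from 1 barcode and 7 barcodes held any. Cdh9 had 0 UMIs in 13 of the 19 WT classes by library and reached 4.31 in the pluripotency gate of WT replicate 2. Tafa4 reached 7.97 in the neuron gate of WT replicate 2, from 3 UMIs. Kcnq3 stood at 44.7 and 34.9 in the mesenchyme gate and 26.9 and 47.9 in the streak gate, against 1.77 and 5.20 in visceral endoderm and 4.15 and 5.03 in the endothelial gate. Kcnj3 stood at 13.4 and 17.7 in barcodes of no gate and ran between 0 in the endothelial gate and 34.5 in the neuron gate, both of replicate 2. Gpc5 stood at 8.90 and 10.1 in the endothelial gate, from 15 and 4 UMIs. The streak gate was the only marker gate with at least 30 barcodes in all 4 libraries. There Kcnq3 stood at 39.2 and 36.8 in LSD1 KO, against 26.9 and 47.9 in WT. Kirrel3 stood at 17.9 and 9.63 in LSD1 KO, against 18.3 (14 of 15 UMIs from 1 barcode) and 17.95 in WT. Dscaml1 was lower in LSD1 KO, at 1.34 and 0.567 against 2.44 and 2.18, from 12 or fewer UMIs. The other members kept the direction of the library sums.

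Il1rapl1 and Kirrel3 had a pattern of their own in WT. Kirrel3 stood at 41.4 and 59.8 in the epithelial endoderm gate (keratin and claudin genes), at 49.0 and 52.6 in barcodes of no gate and at 47.5 in the neural progenitor gate of replicate 2 (19 UMIs, 9 of them in 1 barcode), against 7.89 and 4.79 in the cardiac and lateral mesoderm gate and 2.36 and 1.73 in visceral endoderm. Counting intervals of the epithelial and cardiac gates were apart in both libraries, but they do not cover clumping of UMIs in single barcodes. In replicate 1, 1 barcode held 51 of the 336 UMIs in the epithelial gate and 1 held 20 of the 90 in the cardiac gate. In replicate 2 these were 23 of 402 and 10 of 41. Il1rapl1 stood at 24.0 and 37.4 in barcodes of no gate and at 9.003 and 16.2 in the epithelial endoderm gate, against 4.65 and 4.21 in the cardiac and lateral mesoderm gate, where 24 of the 53 UMIs of replicate 1 came from 1 barcode. Barcodes of no gate held 84.3% and 87.8% of its UMIs from deeper barcodes in the WT libraries, and 78.6% and 79.4% of those of Kirrel3. These barcodes made up 61.1% and 63.0% of the deeper WT barcodes. Dscaml1 was measured at 5.18 and 4.61 in the epithelial endoderm gate and at 0.0877 and 0.117 in the cardiac and lateral mesoderm gate.

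**Figure D2:**
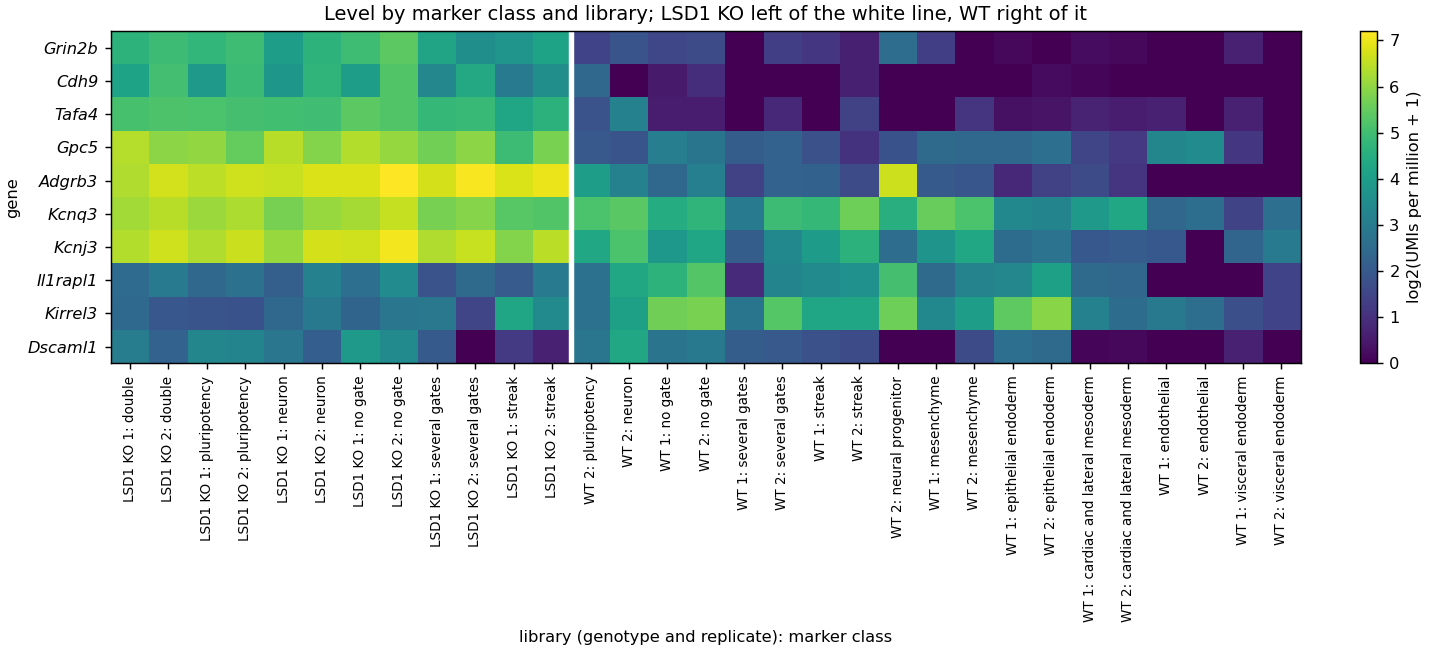
Colour gives log2(CPM + 1) of each gene (rows) in each marker class of each library with at least 30 barcodes (columns), with LSD1 KO left of the white line and WT right of it. The 7 upper genes are brighter in the LSD1 KO columns than in most WT columns. Adgrb3 in the WT replicate 2 neural progenitor gate is an exception. Kcnq3 also reaches its LSD1 KO range in WT, at 47.9 CPM (streak, replicate 2), 44.7 (mesenchyme, replicate 1) and 39.8 (neuron, replicate 2). Il1rapl1 and Kirrel3 reach their highest levels in WT columns (37.4 CPM in no gate and 59.8 CPM in the epithelial endoderm gate, both of replicate 2). Both lie within or below their LSD1 KO range in the WT visceral endoderm and endothelial gates.

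Shares of cells were compared after barcodes with at least 5000 UMIs were thinned to 5000 UMIs, 4363 and 2176 in LSD1 KO and 3067 and 5667 in WT. This left out all barcodes under 2000 UMIs. It also left out 513 and 293 deeper barcodes in LSD1 KO and 635 and 739 in WT. An Adgrb3 UMI was then seen in 34.6% and 38.0% of LSD1 KO barcodes, against 1.43% and 2.12% of WT barcodes. Before thinning the shares were 59.9% and 75.9% in LSD1 KO, against 3.20% and 3.86% in WT. In WT visceral endoderm 0 of 75 and 0 of 55 thinned barcodes held one (exact 95% upper limits 4.80% and 6.49%). These limits lie above the shares of all WT barcodes, so too few were counted to set this class apart. Tafa4 was seen in 12.9% and 12.2% of LSD1 KO barcodes, against 0.293% and 0.318% of WT barcodes. Kirrel3 was seen in 2.04% and 1.70% of LSD1 KO barcodes, against 6.33% and 7.13% of WT barcodes. At least 3 of the 10 genes were seen together in 16.8% and 23.1% of thinned LSD1 KO barcodes, against 1.04% and 1.18% of thinned WT barcodes. The LSD1 KO class with the lowest share was the streak gate, at 7.45% and 14.1%. The highest was the double gate in replicate 1, at 22.9%, and barcodes of no gate in replicate 2, at 28.0%.

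Across 31 class-by-library sums the 7 strongly higher genes followed each other, with Pearson r between 0.667 and 0.949 for their 21 pairs on log2(CPM + 1). These points come from 4 libraries and share depth and genotype. The members were chosen on that genotype contrast, so high r among the 7 follows in part from the choice and is a description only. No r within a genotype was computed, here or for the closest profiles below. Il1rapl1 and Kirrel3 had r = 0.679 with each other. Of 13671 genes compared over the same 31 points, the profiles closest to Grin2b were Dock3 (r = 0.975), Med14 and Mt3, and those closest to Tafa4 were Bcl11b (0.984), Zfy1 and Gng3. Cdh9 was closest to Clgn (0.983), Gm32885 and Insyn2b. Nrg3 (0.952), Grm6 and Gm364 lay closest to Gpc5. Astn1 (0.967), Fez1 and Sf3b6 lay closest to Adgrb3. For Kcnq3 these were Nasp (0.925), Ptma and Dut, and for Kcnj3 Pbdc1 (0.942), Nrxn2 and Acadl. Kirrel3 was closest to Arsi (0.893), Shh and Pifo, Il1rapl1 to Taf15 (0.841), Nuak2 and Atp5g2, and Dscaml1 to Fgfbp1 (0.832), Fam178b and Prrg4.

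Shallow barcodes (500 to under 2000 UMIs) carried relatively more RNA of these genes than deeper barcodes (at least 2000 UMIs). This contrast lies within libraries and did not choose the members. Shallow barcodes numbered 817 and 576 in LSD1 KO (14.4% and 18.9% of those kept) and 691 and 422 in WT (15.7% and 6.18%). Kcnq3 had 262.8 and 243.0 CPM in shallow barcodes of LSD1 KO, against 61.6 and 80.9 in deeper barcodes of LSD1 KO. In WT it had 47.2 and 51.3 in shallow barcodes, against 17.5 and 23.7 in deeper ones. All 4 libraries moved the same way, and edgeR's test with the library as a block gave a log2 fold change of 1.30 ± 0.14 (SE, adjusted p = 4.49e-18). Dscaml1 had 50.2 and 33.3 CPM in shallow barcodes of LSD1 KO, against 7.73 and 7.32 in deeper ones, and 12.7 and 19.0 in shallow barcodes of WT, against 4.39 and 5.10 in deeper ones. Its log2 fold change of 1.84 ± 0.24 (edgeR adjusted p = 1.33e-12) was the largest of the set. Kirrel3, with 135.8 and 57.0 in shallow against 36.1 and 42.4 in deeper barcodes of WT, rose by 1.09 ± 0.18 (edgeR adjusted p = 2.19e-08), although it was low in LSD1 KO.

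In all, 9 of the 10 members were called higher in shallow barcodes and none lower, where 20.5% of the 15357 genes tested were called higher and 23.5% lower. The members' median log2 fold change was 0.87, against 0.04 for all genes tested. The other called members were Grin2b at 1.17 (edgeR adjusted p = 1.58e-07), Adgrb3 at 0.93 (5.21e-08), Gpc5 at 0.82 (8.08e-06), Il1rapl1 at 0.79 (0.00123), Kcnj3 at 0.71 (2.17e-05) and Tafa4 at 0.53 (0.0400). Cdh9 was at 0.56 ± 0.27 (edgeR adjusted p = 0.0769), from 0 to 34 UMIs per library in shallow barcodes. With library totals in place of TMM all genes shifted to a median of 0.38, the members' median was 1.23, 10 of 10 were called and 71.7% of all calls were higher, in place of 46.7%. The count of 9 was 8 within the LSD1 KO libraries, 3 within the WT libraries (Kcnq3, Kirrel3 and Dscaml1) and 1 (Dscaml1) without the library block, and DESeq2 called 7, without Grin2b (adjusted p = 0.469) and Tafa4 (0.145). Leaving out LSD1 KO replicate 1 lost Tafa4 and Gpc5 (edgeR adjusted p = 0.588 and 0.0691), and leaving out LSD1 KO replicate 2 lost Tafa4 and Il1rapl1 (edgeR adjusted p = 0.114 and 0.108).

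WT shallow barcodes held 0 to 10 UMIs of Grin2b, Cdh9, Tafa4, Gpc5 and Adgrb3 per library, and none of these 5 genes was called within WT. A test of whether the depth contrast differed between LSD1 KO and WT called none of the 10 members (17 of 16509 genes called). The lowest unadjusted p among members was 0.00863 for Gpc5 (edgeR adjusted p = 0.482), and 3 of the 10 had an unadjusted p under 0.05. Grin2b and Gpc5 had negative estimates within WT, at −1.19 ± 1.60 and −0.37 ± 0.60 (SE), both from 4 or fewer UMIs per library in shallow barcodes.

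**Figure D3:**
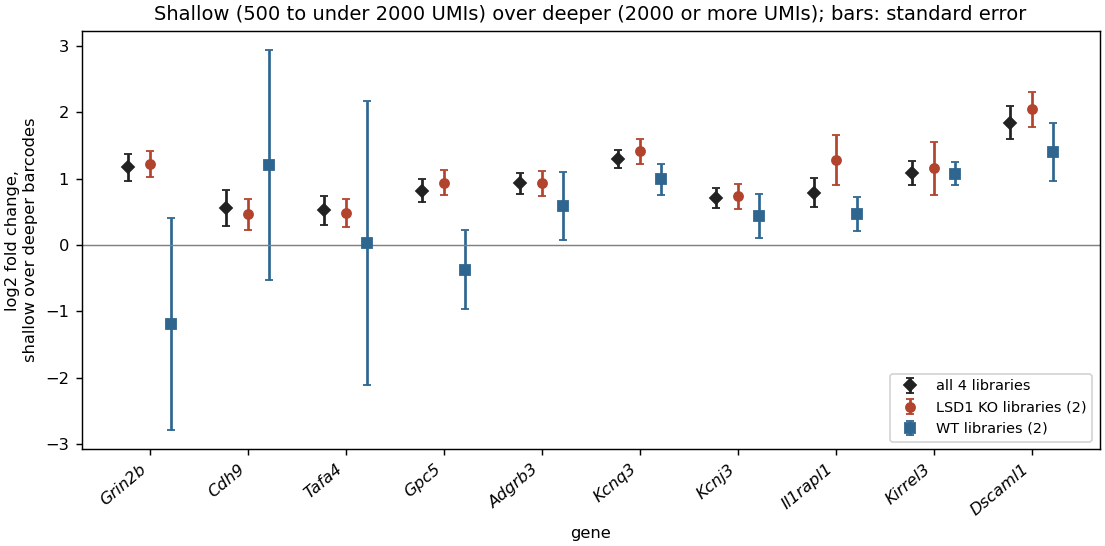
Log2 fold change of each gene in shallow (500 to under 2000 UMIs) over deeper (2000 or more UMIs) barcodes, with standard errors, in all 4 libraries (black), the 2 LSD1 KO libraries (red) and the 2 WT libraries (blue). All black and red points lie above 0, and Grin2b and Gpc5 are the genes whose WT point lies below 0.

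Finer depth classes were read in each LSD1 KO library. In replicate 1 Adgrb3 declined with depth, from 294.1 CPM in barcodes of 500 to under 1000 UMIs through 185.4 at 2000 to under 5000 UMIs to 92.3 at 20000 UMIs or more. In replicate 2 it was highest at 2000 to under 5000 UMIs, with 337.7, and stood at 199.4 in the shallowest class and 106.9 in the deepest. Dscaml1 stood at 49.7, 50.4 and 46.4 in the classes below 5000 UMIs of replicate 1, and at 3.999 in the deepest class. In each class below 10000 UMIs it was at 19.3 or more in both LSD1 KO libraries, and in each class above at 14.8 or less. Grin2b in replicate 1 stood at 103.1 in the shallowest class and between 19.1 and 23.0 in the 3 deepest. In replicate 2 Grin2b was highest at 2000 to under 5000 UMIs, with 105.7, and stood at 79.8 in the shallowest class and 30.1 in the deepest.

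**Figure D4:**
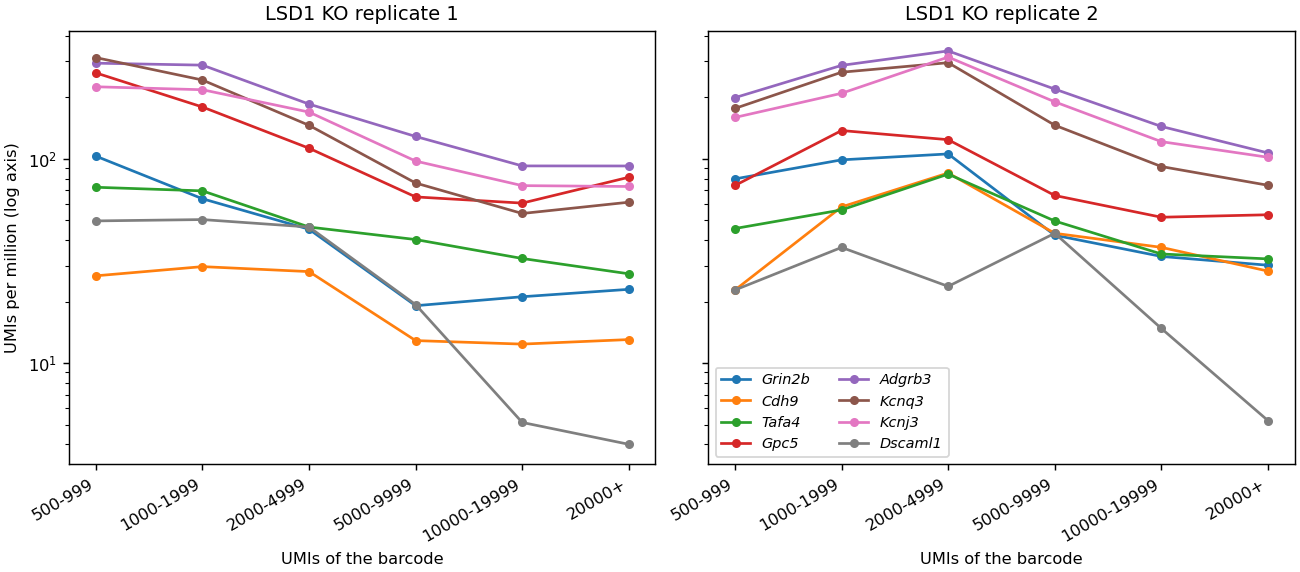
CPM (log axis) of the 7 strongly higher genes and Dscaml1 by the UMI count of the barcode, in LSD1 KO replicates 1 and 2. All 8 genes are lower in the deepest class than at 2000 to under 5000 UMIs in both libraries, and Dscaml1 reaches 3.999 and 5.23 there.

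The depth contrast followed gene length over the whole table. Of genes spanning under 20 kb, 5.35% were called higher in shallow barcodes, against 21.2% at 20 to 100 kb, 60.7% at 100 to 300 kb and 73.7% over 300 kb. The median log2 fold changes of these classes were −0.48, 0.16, 0.62 and 0.83. Across 14845 genes, which are not independent replicates, the log2 fold change had Pearson r = 0.422 with log10 span and Spearman rho = 0.517. Members lay within this pattern to different degrees. Il1rapl1 and Gpc5 exceeded 45.0% and 47.9% of the genes over 300 kb, and Tafa4 exceeded 40.3% of those at 100 to 300 kb, so these 3 were near the middle of their class. Dscaml1 exceeded 98.8% of its class and Kcnq3 94.1% of its own. The medians of the genotype contrast did not climb with span, at 0.04, −0.02, −0.13 and 0.11 over the 4 classes. The shares of genes called did differ between the classes. From the shortest to the longest class, 23.1%, 21.2%, 24.1% and 34.3% were higher in LSD1 KO, and 18.55%, 22.3%, 31.8% and 30.7% were lower. Both shares were thus larger over 300 kb than under 20 kb.

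Other RNAs moved with depth as well. Nuclear-retained RNAs (Malat1, Neat1, Meg3, Kcnq1ot1 and Miat) were 2.90 and 1.64 times as high in shallow as in deeper barcodes of LSD1 KO, and 1.57 and 2.45 times in WT. Ribosomal protein genes stood at 0.534 and 0.691 times in LSD1 KO, and 0.705 and 0.722 times in WT. Neuron markers as a list were not higher in shallow barcodes, at 0.716 and 0.791 times in LSD1 KO and 0.969 and 0.718 times in WT, and streak markers stood at 0.550 and 0.679 times in LSD1 KO. Endothelial markers stood at 2.96 and 2.88 times in LSD1 KO, at summed levels of 36.3 and 37.6 CPM in shallow barcodes, and at 0.625 and 1.04 times in WT. The part of nuclear RNA or of cell type in the members' depth contrast was not tested.

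**Figure D5:**
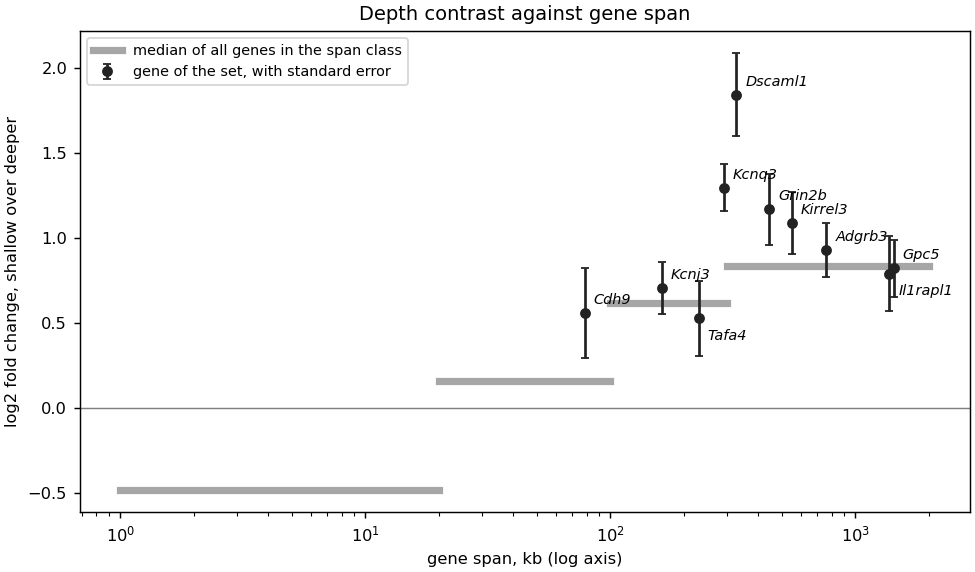
Log2 fold change in shallow over deeper barcodes, with standard error, against the gene span in kb (log axis) for the 10 genes, with grey bars at the median of all genes in each span class (under 20, 20 to 100, 100 to 300 and over 300 kb). The class medians climb with span, to 0.83 over 300 kb, and Dscaml1 and Kcnq3 lie well above the bar of their class.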

How the data were processed

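Day 6 EBs of 2 LSD1 KO and 2 WT replicates were analysed. The authors prepared droplet 3′ libraries, aligned reads to mm9 and counted them with Cell Ranger 7.1.0 at default settings, which in this version include reads in introns, so that long genes gain counts from unspliced RNA. The deposited values are whole-number UMI counts, not normalized, in 1 matrix a library that still includes near-empty barcodes. The mm9 build is taken from the submitters' processing notes. The authors used Seurat 4.3.0 for their own filtering and clustering, which was not used here.

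The study's own limits (500 UMIs and 500 genes a barcode) defined cells, and UMIs were summed per library, depth class or marker class. Genes seen in at least 10 kept barcodes and past edgeR's filterByExpr were tested with edgeR 4.0.16 (R 4.3.3, TMM factors, quasi-likelihood test, Benjamini-Hochberg adjustment over all genes, threshold 0.05), with genotype alone for LSD1 KO over WT and with library and depth class for shallow over deeper. The replicates are called biological by the study. For LSD1 KO over WT the p-values measure the spread between libraries of a genotype, shared in part over genes. For shallow over deeper they concern differences within libraries. Their spread was taken almost wholly from all genes together. A small value, such as the edgeR adjusted p = 4.49e-18 of Kcnq3, does therefore not measure how the 4 libraries differ for that gene.

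The members and lists were chosen with earlier results of these data known. The members were picked on the genotype contrast itself and so have no test between genotypes or marker classes, and calls of list genes are not independent evidence. Named relatives were, from each list, up to 4 called genes with at least 5 CPM (UMIs scaled to a common total) in the higher genotype, by size of change, and genes of lower level or in smaller lists are named beside a count. The 3 genes with the highest Pearson correlation were named as closest profiles. A barcode with at least 2000 UMIs entered a gate when at least 3 of its markers reached 100 CPM, and a class was given in a library with at least 30 barcodes. No doublet caller was run, and an alternative left out the 5% of barcodes with the most UMIs. Intervals at 95% (Poisson for levels, Clopper-Pearson for shares) cover counting error only. The test was checked on simulated counts. Spans came from GENCODE M1 on NCBIM37, and promoters from RefSeq. Alternatives were DESeq2 1.42.0, library totals, other filters and depth limits, a replicate block and leaving out each library. Some genes of the lists are not reported here by name.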

Additional observations from a re-analysis of the deposited data

How the results depend on the processing

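Calls of related genes between LSD1 KO and WT kept within 1.5 times of 55 higher and 34 lower under each alternative run (41 to 59 higher, 27 to 37 lower), as did the 3839 higher calls over all genes (2704 to 3415 without each replicate in turn). The 3661 lower calls over all genes were 2295 to 3251 without each replicate, the lowest without LSD1 KO replicate 2. With a replicate block the lists gave 57 higher and 35 lower and all genes 4118 and 3979. Deviations of same-numbered libraries had a correlation of 0.19, the same for both numbers by construction, and nothing in the labels ties the numbers together, so the numbers are not read as pairs.

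For shallow over deeper barcodes, the 9 members called higher were 3 in the WT libraries only and 1 with no library block, and 7 to 9 without each replicate. All genes called higher, 3153, were 5121 with library totals only, 1487 in the WT libraries only, 1105 with no library block and 1960 to 2892 without each replicate, the lowest without LSD1 KO replicate 1. All genes called lower, 3606, were 2021 with library totals only, 2020 with no library block and 3210 to 3443 without each replicate. Leaving out libraries reduces the samples fitted, and leaving out the block keeps differences between libraries in the spread, by construction. Other causes were not tested. In the WT libraries only, Grin2b (−1.19) and Gpc5 (−0.37) turned negative, and neither was called. Members' log2 fold changes between genotypes kept their sign in all 100 alternatives, with Adgrb3 between 3.90 and 4.93 and Dscaml1 between 0.44 and 0.73. Of the class levels recomputed with other marker rules or without the deepest barcodes, 214 left their counting interval and 606 did not, 102 of the moved ones with 200 CPM asked of a marker, where several classes fell under 30 barcodes and gave no value. Precision was limited in WT shallow barcodes, with 0 to 10 UMIs of 5 members.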
